A study of Bombus terrestris with 20 samples.

Results

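The genes described here were those that workers of the bumblebee *Bombus terrestris* expressed at far higher levels in fat body than in brain or ovary. Their fat body levels were similar in ovary-active and ovary-inactive workers. No other tissue of the workers was sequenced. The genes were chosen by their measured levels. A gene was taken when its mean over the 6 fat body libraries was at least 1000 normalized counts and at least 20 times its mean in both brain and ovary. It was kept when the largest of its 6 fat body values was at most 4 times the smallest and the means of both phenotypes lay within 1.5-fold of each other. Of the 9659 genes in the fat body data, 96 met the limits on level and 74 of these also met the limits on stability. The other 22 enriched genes fell outside the limits of stability and serve as a comparison. These limits used the fat body values of both phenotypes and the mean levels in brain and ovary, so the fat body values below are a description. The difference between phenotypes in ovary and in brain, and the levels in eggs, were not used by the rule. The ovary means did include active ovaries, which contain eggs.

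Among its aims, the study asked how gene expression differs between ovary-active and ovary-inactive workers. The workers came from colonies that had a queen and in which workers had begun to lay eggs. Workers of the subspecies *audax* with ovary scores of 4 to 6 were called ovary-active and those with scores of 0 to 1 ovary-inactive, and they were 22 to 34 and 24 to 32 days old, respectively. For each of brain, fat body, and ovary, 3 libraries were made per phenotype, each from the pooled tissue of 7 workers apart from a larger pool for 1 library of ovary-inactive brain. A further pool of ovary-inactive brains was taken from later colonies. In addition, 2 libraries came from pools of 24 eggs each, laid by workers and collected within 1 h. The egg-laying workers were of unknown age and were kept in small groups of workers taken from other, later colonies. Another provider made and sequenced the egg libraries, so eggs and worker tissues differ in more than their kind. The workers whose tissues were sequenced had received no treatment and differed in the state of their ovaries. The workers came from commercial colonies. Pools of both phenotypes were matched by age, and age-matched workers came mostly from different colonies, so colony and phenotype cannot be fully told apart. Fat body was stored in another preservative than brain and ovary, and preservative and tissue cannot be told apart. The replicates are pools, so the spread given below is that between pools and not between workers.

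The fat body of insects combines the roles of a liver and of fat tissue. Its main cells, the trophocytes, store lipid and glycogen and release proteins into the hemolymph, among them immune proteins and the yolk precursor vitellogenin. Oenocytes lie among the trophocytes in bees and lengthen fatty acids for the hydrocarbons that waterproof the cuticle. Because whole tissues were sequenced, fewer cells of a type and less RNA per cell cannot be told apart in any level below.

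The values are normalized counts, which were scaled within each tissue by the authors and not across tissues. They are not divided by transcript length, so they compare libraries for a gene and do not rank genes by transcript number. The tissue libraries rest on 23171602 to 34429881 pseudoaligned reads, and 1 read was worth 0.768 to 1.39 normalized counts. When every library was instead scaled to the same total, 73 of the 74 genes still met the rule. Names were at hand for 13 of the 74 genes, of which 6 are uncharacterized proteins. The other 61 genes are given by their identifiers, with no role.

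The tissue label was compared with a few genes that mark cell types, among the 2216 genes with a name. Of 3 trophocyte genes, the lipid storage droplets surface-binding protein LOC100643850 had a mean of 8800 normalized counts in fat body, 2581 in brain, and 6196 in ovary. A further lipid storage droplets surface-binding protein, LOC100643974, had 186 in fat body, 809 in brain, and 2601 in ovary. The vitellogenin-like precursor LOC100643258 was nearly absent from fat body, with 2.95 normalized counts, against 55.3 in brain and 890 in ovary. Only 1 of the 3 was therefore highest in fat body. Genes without a name could not be listed, so these values do not show whether another vitellogenin gene was expressed in fat body. Of 7 genes for oenocyte enzymes, 2 were among the 74 genes and 2 were not listed in fat body. The summed level of 7 muscle genes was 10195 to 17140 normalized counts in fat body, below the 28962 to 51957 in ovary. In brain these genes summed to 23254 to 38166, and LOC100642686, named titin, was highest there, with a mean of 22888. Hemocytin, a hemocyte protein, stood at 406 to 637, the only gut marker, trypsin-3, at 12.1 to 30.4, and 3 cuticle genes together at 9.21 to 27.7 normalized counts in fat body.

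**Figure D1:**
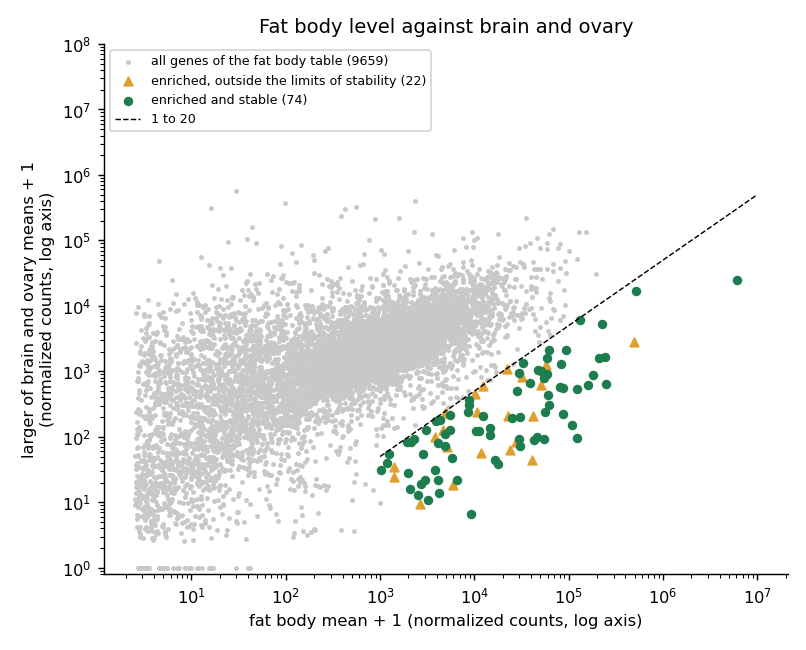
Mean level in fat body (x axis) against the larger of the mean levels in brain and ovary (y axis), both as normalized counts plus 1 on log axes, 1 point per gene. The 74 stable enriched genes (circles) and the 22 enriched genes outside the limits of stability (triangles) lie below the dashed line at 1 to 20, and LOC100652170 is the circle farthest to the right.

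In fat body, the 74 genes together took 32.3% to 33.8% of the normalized counts of the ovary-active libraries and 33.2% to 35.6% of those of the ovary-inactive libraries. In brain they took 0.137% to 0.184% of a library, and in ovary 0.0962% to 0.369%. The 22 enriched genes outside the limits took 4.01% to 5.17% of the ovary-active and 1.46% to 1.65% of the ovary-inactive fat body libraries. Among them, LOC100650436 alone had 810085, 861953, and 1155630 normalized counts in ovary-active and 42961, 76156, and 31677 in ovary-inactive fat body. It made up most of the ovary-active sums of the 22 genes, which were 1184630 to 1549560. The ovary-active mean was the higher one in 8 of the 22. The mean fat body level of the 74 genes ranged from 1021 to 6040880 normalized counts, with a median of 21281, and 44 of them were at 10000 or more. The 12 genes with the most normalized counts held 83.1% to 85.5% of the total of the 74 genes.

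A single gene, LOC100652170, held 19.6% to 22.5% of all normalized counts in every fat body library. Its levels were 6135640, 5678810, and 6356880 normalized counts in the ovary-active libraries and 5756460, 6632540, and 5684970 in the ovary-inactive libraries. The means were 6057110 ± 345792 (SD, n = 3) and 6024660 ± 527653 (SD, n = 3), so both phenotypes overlapped and differed by less than the spread between pools. Its fat body level was 244 times its mean in ovary and 5656 times its mean in brain. The gene has no name in the sources used here.

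LOC100650274 followed, with 464577, 429697, and 463256 normalized counts in ovary-active and 501165, 622361, and 621076 in ovary-inactive fat body. All 3 ovary-inactive libraries lay above the ovary-active ones for this gene. LOC100648720 showed the same order, with 139078, 141981, and 159644 in ovary-active and 209436, 222169, and 204422 in ovary-inactive fat body. For LOC100648002 the order was the reverse, with 134224, 147335, and 142450 in ovary-active and 88235, 125795, and 95624 in ovary-inactive fat body. Of the 74 genes, 7 lay higher in all ovary-active fat body libraries and 9 higher in all ovary-inactive ones, where 15.6% and 15.2% of all genes tested in fat body did. None of the 74 genes was called by the limma test in fat body, where 2.93% of all 8850 genes tested were, and nothing is read from this since the rule used these values. Of the 22 genes outside the limits, 9 were called.

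The other genes among the 12 had means of 109552 to 247618 normalized counts. LOC100646095 ranged from 216514 to 299361, and LOC100651168 from 178095 to 380566. Both overlapped between phenotypes, and both were highest in ovary-inactive replicate 1. The kunitz-type serine protease inhibitor Bt-KTI (LOC100631053), which belongs to a family of small proteins that block proteases and is known from bumblebee venom, ranged from 127606 to 189375 normalized counts. LOC100647796 ranged from 186560 to 254826, LOC100644333 from 96540 to 172755, and LOC100650927 from 90832 to 122485, each overlapping between phenotypes.

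**Figure D2:**
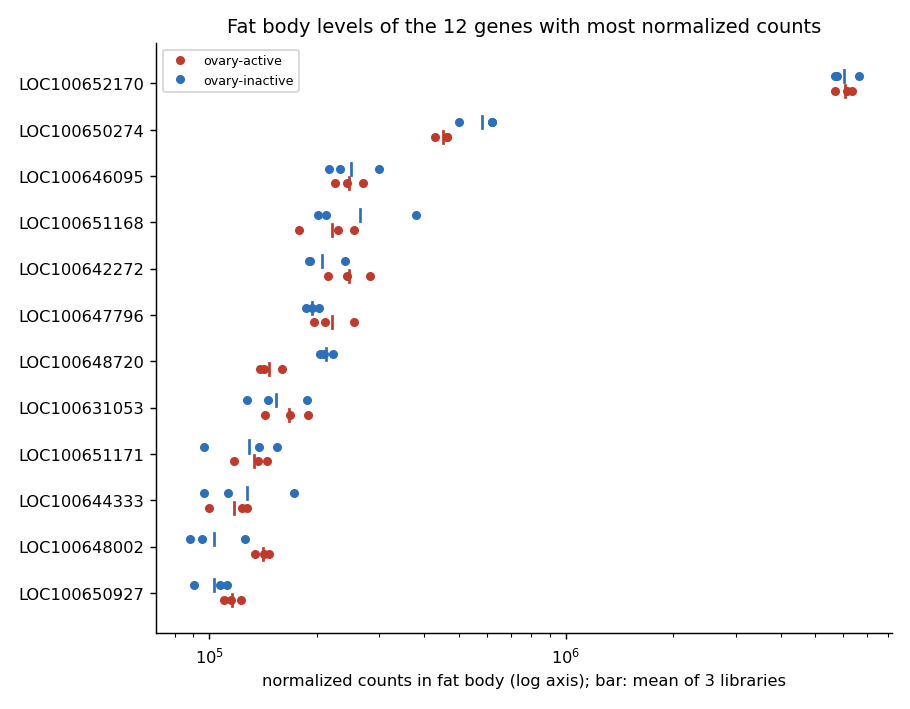
Normalized counts in fat body (log axis) of the 12 genes with the most normalized counts, 1 point per library, with ovary-active workers in red and ovary-inactive workers in blue and a bar at the mean of 3 libraries. LOC100652170 stands alone near 6040880, and the phenotypes overlap for most genes but not for LOC100650274, LOC100648720, and LOC100648002.

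The 74 genes varied between the 6 fat body pools with a median coefficient of variation of 14.6% (range 5.36% to 46.9%), against a median of 10.3% over all 3566 genes with a mean of at least 1000. The largest value was less than 2 times the smallest in 66 of the genes. The steadiest was LOC100648100, with 59453, 62882, and 58747 normalized counts in ovary-active and 56958, 64295, and 64982 in ovary-inactive fat body. The most variable by the ratio of extremes was LOC100648499, which had 4134, 1767, and 2581 in ovary-active and 2818, 2109, and 5199 in ovary-inactive fat body. The highest value fell in ovary-inactive replicate 1 for 29 genes and the lowest in ovary-active replicate 2 for 21 genes. The shares over all genes in fat body were not computed, so nothing is read from these counts. The cause of these differences between pools was not tested.

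Each limit of the rule is shown by the gene just inside and by the nearest gene that failed this limit alone. LOC100647505 had the lowest mean taken, 1021 normalized counts, and LOC100651790 missed at 998. LOC100651171 was 21.4 times its ovary mean, whereas LOC100649144 missed at 19.9 times. LOC100648499 had a largest value 2.94 times its smallest, and the gene for defensin (Def), an antimicrobial peptide, failed that limit alone at 27.2 times, while other enriched genes beyond it also failed the limit on the phenotype means. The phenotype means of LOC100646348 differed 1.46-fold, and those of LOC100644951 missed at 1.503-fold.

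Several genes with a known name belong to fatty acid metabolism. Very-long-chain fatty acids are built by a cycle in which an elongase joins carbons to the chain and a reductase, a dehydratase, and a further reductase complete each round. The 74 genes held 3 of these enzymes. The 3-oxoacyl-CoA reductase (LOC100642272) had 243275, 215318, and 281434 normalized counts in ovary-active and 190984, 239820, and 189767 in ovary-inactive fat body, with overlap. An elongase, elongation of very long chain fatty acids protein AAEL008004 (LOC100642650), had 44843, 43666, and 58017 in ovary-active and 69680, 67520, and 67837 in ovary-inactive fat body, with no overlap. The enoyl-CoA reductase (LOC100644169), which closes the round, overlapped between phenotypes, at 60547, 69417, and 64518 against 50843, 67142, and 62915.

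The dehydratase of the cycle, LOC100642777, was not enriched, with 1677 normalized counts in fat body, 1816 in brain, and 2053 in ovary. The other elongases with a name were LOC100645016, with 12122 in fat body and 1906 in ovary, and LOC100642769, with 36.5 in fat body and 173 in brain. Fatty acyl-CoA reductase wat (LOC100643779), of a family that turns fatty acids into fatty alcohols and whose *Drosophila* counterpart is needed for gas filling of the tracheae, had 88931, 102452, and 87764 in ovary-active and 59267, 89702, and 94830 in ovary-inactive fat body. The phenotypes overlapped for wat. Of 11 named genes for lipid synthesis and storage, 2 were among the 74 genes, and 0 of the 9 tested in fat body were called.

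Immune and signalling proteins formed a smaller group. Lysozyme (LOC100642297), which breaks down bacterial cell walls, had 33764, 29978, and 34261 normalized counts in ovary-active and 22432, 31881, and 27564 in ovary-inactive fat body. G-protein coupled receptor 39 (LOC100643203), named after a zinc-sensing receptor of mammals, had 2417, 2084, and 2648 in ovary-active and 3096, 4067, and 2705 in ovary-inactive fat body. Lysozyme overlapped between phenotypes and the receptor did not. A list of 17 genes was drawn up by words in gene names that can point to immune proteins. It held antimicrobial peptides, Toll-like receptors, proteases, and a protease inhibitor, but not lysozyme. It also held proteins taken only because their names contain leucine-rich repeat, whose part in immunity is not given, so the counts describe the list and not immune proteins as such. Of these 17, 1 was among the stable genes, Bt-KTI, and 3 were among the 22 outside the limits, including leucine-rich repeat-containing protein 70 (LOC100642443). Of 10 named genes for detoxification, 0 and 1 were, respectively. None of the 14 named genes for sugar metabolism or of the 8 for amino acid, one-carbon, and purine metabolism was in either group, and 61 of the 74 genes have no name to be matched.

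The depth of the enrichment differed widely. The fat body mean was a median of 98.5 times the larger of the brain and ovary means, and at least 100 times in 37 genes. The largest ratios belonged to LOC100649022, LOC100648002, LOC100650927, LOC100650033, and LOC100645388. LOC100649022 had 7183 to 11636 normalized counts in fat body, 1.74 to 12.8 in brain, and 1.01 to 6.004 in ovary. LOC100648002 reached 22.6 to 35.9 in brain and 66.7 to 125 in ovary. Every one of the 74 genes was listed in ovary and 73 in brain, where LOC110119770 was not listed. The ovary mean was above the brain mean in 54 genes.

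In ovary, 28 of the 71 genes tested (39.4%) were ovary-active worker DEGs, genes that limma called higher in the ovary-active workers at an adjusted p under 0.05, and 27.3% of all 9496 genes tested were. A single gene (1.41% of the 71) was an ovary-inactive worker DEG, where 26.7% of all genes tested were. The median log2 fold change was 0.71 over the 71 genes and 0.02 over all genes tested, and 50 of the 71 were above 0. The median of the enriched genes was 0.28 when ovary-active replicate 2 was left out and 1.03 when replicate 3 of the same phenotype was. The ovary-active libraries lay above all ovary-inactive ones in 31 genes (33.3% of all genes tested did) and below all of them in 3 (also 33.3% of all genes). Of the 22 comparison genes, 19 were tested, and 5 were called higher and 1 lower in ovary-active workers. The 3 genes not tested, LOC100643447, LOC100649022, and LOC100649919, had means of 2.97 to 9.78 normalized counts in ovary.

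Scaling every library to its total moved the median over all genes to -0.32 and the calls over all genes to 16.6% higher and 39.9% lower in ovary-active workers. Under this scaling the median of the 71 genes was 0.38, and 23 were called higher and 3 lower. Leaving out 1 library at a time gave 24 to 30 genes called higher, and 22 of the 28 were called in all 6 of these fits.

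**Figure D3:**
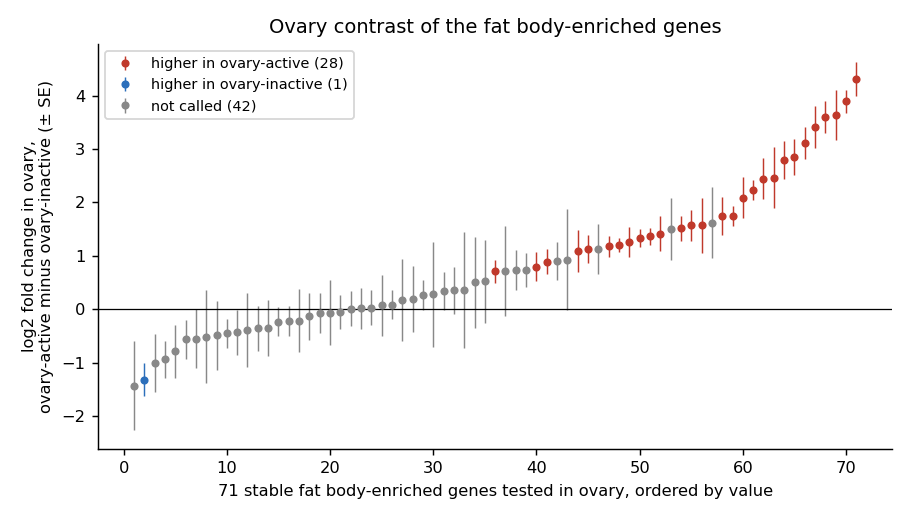
Log2 fold change in ovary, ovary-active minus ovary-inactive, on the log2(normalized count + 1) scale for the 71 genes tested, ordered by value, with bars of 1 standard error. The 28 red points were called higher in ovary-active workers, from 0.71 to 4.30, the single blue point is LOC100650033, and the 42 grey points were not called.

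The summed level of the 74 genes was 94564 to 105779 normalized counts in ovary-active and 23096 to 28995 in ovary-inactive ovary, with no overlap. LOC100652170 alone made up 30644 to 51321 and 4036 to 7605 of these. Without it, the sums were 46736 to 63921 and 19013 to 21505, which still did not overlap. The 28 DEGs had ovary-active means of 0.532% to 7.88% of their fat body means, a range that the rule itself bounds from above.

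The largest changes were of LOC100651254, LOC100643624, and LOC100644470. LOC100651254 had 871, 592, and 618 normalized counts in ovary-active and 33.4, 47.4, and 24.1 in ovary-inactive ovary, a log2 fold change of 4.30 (SE 0.32, limma adjusted p = 0.000106). LOC100643624, an uncharacterized protein, had 1670, 2145, and 1930 against 163, 123, and 104 (log2 fold change 3.89, SE 0.22, limma adjusted p = 4.32e-05). The ovary libraries of both genes were far apart between phenotypes. LOC100644470, also uncharacterized, had 673, 1415, and 1648 against 129, 127, and 48.5 (3.63, SE 0.47, limma adjusted p = 0.000796). In fat body the same 3 genes overlapped between phenotypes, with LOC100651254 at 7030 to 11175, LOC100643624 at 45506 to 57582, and LOC100644470 at 31966 to 46605 normalized counts.

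LOC100643858 had 848, 1184, and 993 normalized counts in ovary-active and 122, 65.5, and 67.7 in ovary-inactive ovary, a log2 fold change of 3.60 (SE 0.30, limma adjusted p = 0.000153). LOC100649937 had 217, 133, and 161 against 9.60, 14.6, and 22.2 (3.42, SE 0.39, limma adjusted p = 0.000509). LOC100648100, the steadiest gene in fat body, had 482, 546, and 573 against 119, 63.4, and 50.5 (2.86, SE 0.34, limma adjusted p = 0.000551). None of these 3 overlapped between phenotypes.

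LOC100652170 had 50808, 30644, and 51321 normalized counts in ovary-active and 7605, 4083, and 4036 in ovary-inactive ovary (log2 fold change 3.11, SE 0.30, limma adjusted p = 0.00028). LOC100650274 had 13673, 9012, and 6374 against 871, 1371, and 1975 (2.79, SE 0.35, limma adjusted p = 0.000692). The lowest ovary-active library of each was well above the highest ovary-inactive one. The other 20 ovary-active worker DEGs changed by 0.71 to 2.46 on the log2 scale.

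The single ovary-inactive worker DEG, LOC100650033, had 41.8, 51.2, and 62.3 normalized counts in ovary-active and 137, 99.4, and 156 in ovary-inactive ovary (log2 fold change -1.31, SE 0.31, limma adjusted p = 0.00881). In fat body it was at 50653 to 60398, with overlapping phenotypes. Without ovary-active replicate 2, the genes called higher in ovary-inactive ovary were 5 in number, LOC100643149, LOC100644375, LOC100645650, and LOC100647596 besides LOC100650033.

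**Figure D4:**
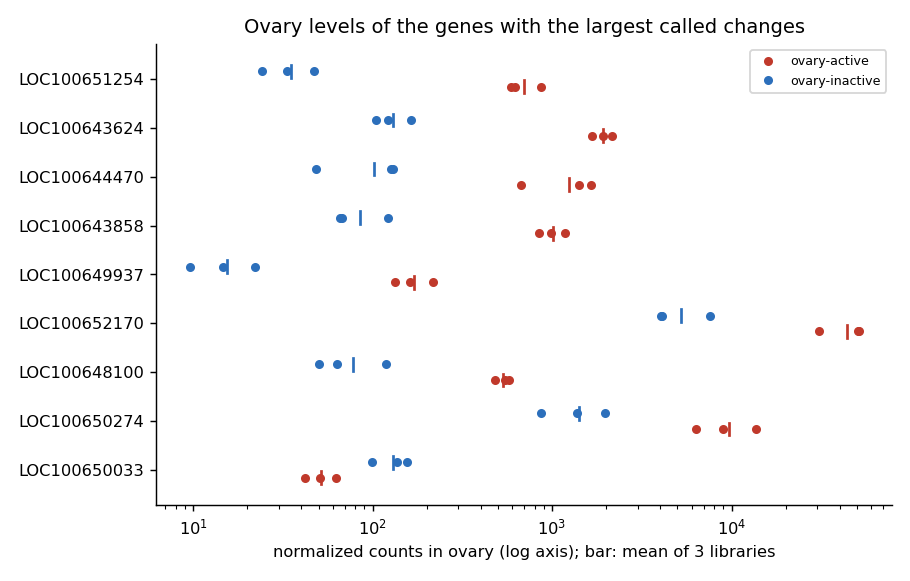
Normalized counts in ovary (log axis) of the 8 most strongly changed ovary-active worker DEGs and of the single ovary-inactive worker DEG, 1 point per library and a bar at the mean of 3 libraries. Red (ovary-active) and blue (ovary-inactive) points do not overlap for any of the 9 genes, and LOC100650033 is the only one with blue to the right.

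The enzymes of the elongation cycle also differed between phenotypes in ovary. The 3-oxoacyl-CoA reductase LOC100642272 had 3723, 3227, and 3953 normalized counts in ovary-active and 632, 721, and 992 in ovary-inactive ovary (log2 fold change 2.24, SE 0.19, limma adjusted p = 0.000171). The enoyl-CoA reductase LOC100644169 had 3018, 2871, and 3266 against 991, 1439, and 1156 (1.37, SE 0.16, limma adjusted p = 0.000577). Neither overlapped between phenotypes. The elongase LOC100642650 had 2304, 1474, and 2150 against 1152, 1024, and 1413 (0.71, SE 0.21, limma adjusted p = 0.0224), and the nearest libraries of the phenotypes were close. Its call was lost when ovary-active replicate 1, ovary-active replicate 3, ovary-inactive replicate 1, or ovary-inactive replicate 2 was left out, with adjusted p of 0.0526 to 0.0712, and with scaling to totals, with an adjusted p of 0.159.

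All 6 named genes of the cycle, members of the 74 or not, were ovary-active worker DEGs, with the dehydratase LOC100642777 at a log2 fold change of 0.62 and the elongases LOC100645016 and LOC100642769 at 0.96 and 3.21, where 27.3% of all genes tested were called in this direction. This list was drawn up after the names of the genes were seen. With scaling to totals, 4 of the 6 were called, without LOC100642650 and LOC100642777. Fatty acyl-CoA reductase wat, by contrast, had 267, 200, and 266 normalized counts in ovary-active and 270, 193, and 156 in ovary-inactive ovary and was not called (0.27, SE 0.28, limma adjusted p = 0.434). Of the 11 named genes for lipid synthesis and storage, 5 were called higher and 0 lower in ovary-active ovary, beside 27.3% and 26.7% of all genes tested.

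Some genes of the 74 lie next to each other in the RefSeq annotation of assembly iyBomTerr1.2, in which 65 of the 74 were found. LOC100648720, LOC100651171, and the elongase LOC100642650 follow each other directly, and all 3 were ovary-active worker DEGs. LOC100648720 had 1622, 1137, and 1368 normalized counts in ovary-active and 447, 394, and 377 in ovary-inactive ovary (log2 fold change 1.75, SE 0.19, limma adjusted p = 0.000402). LOC100651171 had 9671, 7379, and 8625 against 3537, 3680, and 3876 (1.20, SE 0.13, limma adjusted p = 0.000472). In fat body, LOC100648720 and LOC100642650 were both higher in all ovary-inactive libraries, whereas LOC100651171 overlapped, at 96347 to 154983. The other neighbours were LOC100649907 with LOC100648002 and LOC100646348 with LOC100647505, none of them called in ovary. LOC100646348 (log2 fold change 1.14, limma adjusted p = 0.071) was called without ovary-active replicate 3 or ovary-inactive replicate 3, at adjusted p of 0.013 and 0.0289.

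G-protein coupled receptor 39 (LOC100643203) was low in ovary, with 55.0, 33.9, and 37.4 normalized counts in ovary-active and 6.98, 5.39, and 8.09 in ovary-inactive workers (log2 fold change 2.45, SE 0.39, limma adjusted p = 0.00174). The phenotypes did not overlap. Lysozyme had 193, 246, and 73.5 against 161, 169, and 169 and was not called (-0.13, SE 0.44, limma adjusted p = 0.815). Bt-KTI had 512, 2033, and 366 against 396, 260, and 125, with overlap (1.62, SE 0.66, limma adjusted p = 0.07), and it was called without ovary-active replicate 3, with an adjusted p of 0.035.

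One ovary library stood apart for these genes. Ovary-active replicate 2 was the highest of the 6 ovary libraries for 41 of the 74 genes, where it was the highest for 11.6% of all genes tested. In 12 of the 74 genes it was over 2 times the next highest library, which was so in 0.695% of all genes tested. LOC100646095, for instance, had 2223 normalized counts there, against 331 and 91.5 in the other ovary-active and 158 to 790 in the ovary-inactive libraries. LOC100651168 had 5523 there and 543 to 1187 in the other libraries.

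The 22 enriched genes outside the limits summed to 24474 normalized counts in this library, against 6359 and 4120 in the other ovary-active and 2748 to 3144 in the ovary-inactive libraries. LOC100650436 alone made up 14896 of the 24474, and it had 792 and 473 in the other ovary-active libraries. Ovary-active replicate 2 was the highest ovary library for 12 of the 22 genes. LOC100652170, with the most normalized counts in fat body, was instead lowest there among the ovary-active libraries. Of the 28 ovary-active worker DEGs, 10 were highest in ovary-active replicate 2. Without this library, 24 of the 28 were still called. The 4 no longer called were LOC100643594, LOC100644671, LOC100651812, and LOC110119770. LOC100651812 had 275, 895, and 285 normalized counts in ovary-active and 213, 139, and 89.0 in ovary-inactive ovary, and LOC110119770 had 17.0, 38.2, and 9.70 against 1.75, 3.08, and 3.03.

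Some genes listed as markers of other cells were also called in ovary. The summed level of the 7 oenocyte enzymes was 5951 to 7347 normalized counts in ovary-active and 3124 to 3787 in ovary-inactive ovary, 2 of them being among the 74 genes, and 4 of the 7 were called higher in ovary-active workers (27.3% of all genes tested). LOC100642650, LOC100643779, and LOC100645016 were highest in fat body. LOC100642667 and LOC100643556 were not listed there, LOC100642769 was highest in brain, with 173, and LOC100644495 had 1190 in ovary and 1146 in fat body. This sum is therefore not a measure of oenocytes alone. The 3 trophocyte genes summed to 9935 to 11063 against 7779 to 9521, and 1 of them was called, the vitellogenin-like precursor, which was higher. This gene had a mean of 2.95 normalized counts in fat body and 890 in ovary, and LOC100643974 had 186 and 2601. Neither the sum nor the call can therefore stand for trophocytes. The 7 muscle genes summed to 28962 to 35831 against 36936 to 51957, with 1 called higher and 4 lower. The largest part of both sums was LOC100642686, with means of 18936 and 15289. It was not called (log2 fold change 0.33) and was highest in brain, so the sum is not a measure of muscle alone. The germline gene piwi-like protein Ago3 stood at 2071 to 2594 against 4494 to 6059. Hemocytin was at 30.5 to 67.9 in ovary-active and 145 to 286 in ovary-inactive ovary. The part of these cell types in the changes above was not tested.

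In brain, 0 of the 63 genes tested were called by limma, where 0.0211% of all 9490 genes tested were (2 genes). At an unadjusted p under 0.05 there was 1 gene, LOC100645443, where 1.11% of all genes tested reached this value. It had 17.6, 15.3, and 9.14 normalized counts in ovary-active and 23.7, 30.4, and 23.3 in ovary-inactive brain (log2 fold change -0.87, limma adjusted p = 0.9999). All ovary-inactive libraries lay above all ovary-active ones in 4 of the 63 genes (2.69% of all genes) and below them in none (1.84% of all genes). The median log2 fold change of the 63 genes was -0.07, and the 11 genes not tested had means of at most 9.67 normalized counts.

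The summed level of the 74 genes in brain was 41194 to 44357 normalized counts in ovary-active and 44284 to 45613 in ovary-inactive workers, which overlapped. LOC100650274 made up a large part of it, with 15996, 16009, and 15627 in ovary-active and 18990, 16440, and 18087 in ovary-inactive brain. Of the elongation enzymes, LOC100642272 was at 4118 to 6850 and LOC100644169 at 1420 to 1962, both overlapping between phenotypes. LOC100652170, in contrast, was at 629 to 1809 in brain.

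Single brain libraries stood apart for a few genes. Lysozyme had 2198 normalized counts in ovary-active replicate 2 and 661 to 766 in the other 5 brain libraries. LOC100645702 had 919 there and 150 in ovary-inactive replicate 1, whereas the other 4 libraries were at 1.95 to 6.08. Its brain mean therefore rests on 2 libraries.

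In worker-laid eggs, 22 of the 74 genes (29.7%) were egg-expressed genes (EEGs), with zFPKM, a score of expression relative to the main peak of expressed genes, over -3 in both libraries. Of all 10661 genes in the egg data, 73.4% were EEGs. Active ovaries contain eggs, so the limit of the rule on the ovary mean bears on the share among the 74, and nothing is read from it. The threshold corresponds to 59.2 estimated counts in replicate 1 and 52.2 in replicate 2. The highest mean among the EEGs belonged to LOC100647796, with 19624 and 6763 estimated counts. LOC100644470 had 3742 and 4072, LOC100651171 had 3777 and 3628, and the enoyl-CoA reductase LOC100644169 had 2353 and 2250, each close between the egg libraries. LOC100651812 had 2749 and 815. Of the 28 ovary-active worker DEGs, 11 were EEGs, as were 11 of the 42 genes without a call in ovary. The share of EEGs among all genes called higher in ovary-active ovary was not computed, so nothing is read from these counts.

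The egg libraries differed for these genes. Replicate 1 was above replicate 2 in 62 of the 74 genes (55.3% of all genes) and over 10 times replicate 2 in 36 (10.9% of all genes), where genes at 0 in replicate 2 are included. With these left out, 15 of the 74 genes and 4.70% of all genes had a ratio over 10. Among genes with a mean of 10 to 1000 estimated counts over both libraries, a range chosen after the values were seen, it was over 10 times replicate 2 in 31 of 57 of the enriched genes and in 16.1% of all 4050 genes, and in 14 and 9.51% with zeros left out. None of the 74 genes was over 10 times higher in replicate 2 (0.478% of all genes).

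LOC100645263 had 19212 estimated counts in replicate 1 and 11.8 in replicate 2. LOC100652170 had 438 and 9.75, and LOC100650033 had 583 and 7.22. Listed at 0 in replicate 2 were 21 of the 74 genes (9.86% of all genes), among them the 3-oxoacyl-CoA reductase LOC100642272 with 295 in replicate 1, and none was at 0 in replicate 1 (4.09% of all genes). The comparison genes showed the same side, with replicate 1 over 10 times replicate 2 in 10 of 22. With 1 library on each side, no test was possible, and the number of EEGs among the 74 was 52 by replicate 1 alone and 22 by replicate 2 alone.

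**Figure D5:**
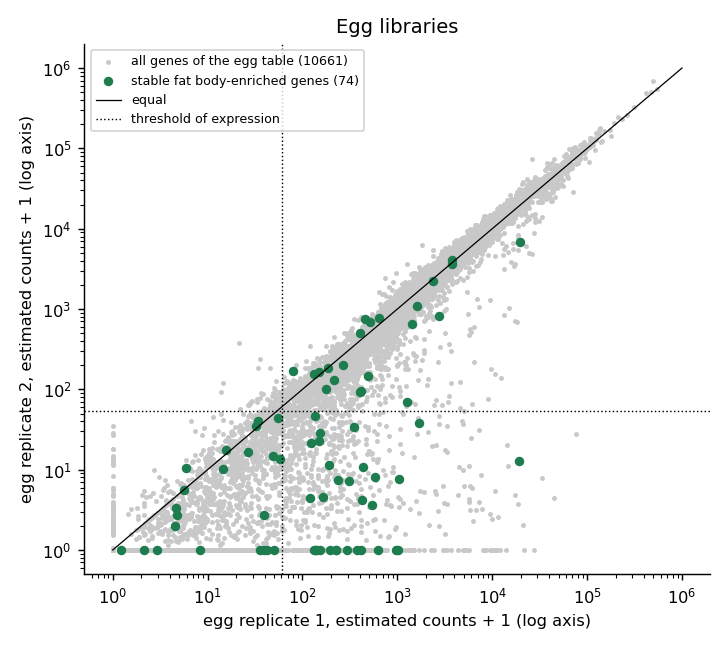
Estimated counts plus 1 of each gene in egg replicate 1 (x axis) and egg replicate 2 (y axis) on log axes, with the 74 stable fat body-enriched genes as green points over all 10661 genes in grey. Most green points lie below the solid line of equal values, 21 of them at 0 in replicate 2, and the dotted lines at 59.2 and 52.2 estimated counts mark the threshold of expression.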

How the data were processed

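With Kallisto 0.46.1, reads were pseudoaligned by the authors to transcripts of Bter_1.0 and, per the labels, used DESeq2 1.34.0 in R 4.1.3. The deposited tissue values (signal) are normalized counts, scaled within each tissue. The deposited egg values are estimated counts made with the scaledTPM option of tximport. Samples were grouped by their labels.

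Phenotypes were compared within each tissue by limma 3.58.1 (R 4.3.3). The fit took log2(normalized count + 1) of genes with a mean of at least 10, with a variance trend and Benjamini-Hochberg adjustment over all genes tested. A fold change on this scale is too small for genes with few counts. Count models were not used, since most values were not whole reads. Other pseudocounts, filters, scalings, a replicate block, and leaving out single libraries were tried. Tables were made in Python 3.11.15 (pandas 2.3.3).

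The genes, lists, and naming rule were chosen with earlier results of these data known. Named are the 12 genes with the highest fat body mean, the 5 with the largest ratio, up to 8 called genes per direction in ovary, the 5 EEGs with the highest mean, those at the limits, neighbours, and list members. Genes named beyond these (lysozyme, G-protein coupled receptor 39, LOC100645702, LOC100645263, LOC110119770, LOC100645443, LOC100650436, those not tested, and those that depend on 1 library) were chosen after their values were seen. Gene names came from the paper's supplementary tables. Sequences were not analysed here.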

Additional observations from a re-analysis of the deposited data

Results flagged for a closer look

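A few genes moved in opposite directions in different tissues, in that every library of a phenotype lay above every library of the other in 1 tissue and below in the other. The difference between tissues was not tested, and the fat body values had been limited by the rule that chose the genes. Log2 fold changes are ovary-active minus ovary-inactive.

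LOC100650274 was higher in ovary-active ovary (2.79) and lower in ovary-active brain (-0.17) and fat body (-0.36), where the changes were small. LOC100648720 was at 1.75 in ovary and -0.53 in fat body, and the elongase LOC100642650 at 0.71 and -0.50. LOC100643858 was at 3.60 in ovary and -0.10 in fat body. G-protein coupled receptor 39 (LOC100643203) was at 2.45 and -0.45, LOC100649409 at 1.74 and -0.30, and LOC100648169 at 0.90 and -0.21. None of the brain and fat body values was called by limma. These 7 genes are 9.86% of the 71 genes tested in ovary, where 4.77% of the 8705 genes tested in both tissues were separated in opposite directions in fat body and ovary. The same direction in both was seen in 3 of the 71, LOC100645881 (1.33 in ovary and 0.53 in fat body), LOC100648563 (2.09 and 0.38), and LOC100649629 (1.13 and 0.13), and in 16.8% of all genes. The limit on phenotype means in the rule bears on both counts, and nothing is read from them.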

How the results depend on the processing

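The number of ovary-active worker DEGs among the genes was 23 to 28 under another pseudocount, other filters, scaling to totals, or an adjusted p under 0.01, and 24 to 30 with 1 library left out. Of the 28, the calls that some of the 6 fits without 1 library lost were those of LOC100643594 (all 6), LOC100642650 and LOC100644671 (4 each), LOC100651812 (3), and LOC100648169 and LOC110119770 (1 each). Ovary-inactive worker DEGs numbered 1, but 2 with a pseudocount of 5, 3 with scaling to totals, and 1 to 5 with 1 library left out. In brain, no alternative called any of the genes. EEGs numbered 22, but 3 with zFPKM over 0, 52 with either library over -3, and 22 to 52 with 1 egg library left out. The rule took 105 genes at 10 times brain and ovary, 55 at 40 times, 59 with a narrower limit on the phenotype means, and 72 to 80 with 1 fat body library left out.

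Pools were matched by age in the study, which names the pools of each pair. The sources used here do not say which replicate number each pool carries. A pairing by number was not assumed, since the deviations of libraries of the same number correlated at -0.059, 0.16, and -0.18 in ovary and at -0.22, -0.11, and 0.25 in brain. With a replicate block, 27 genes were called higher and 1 lower in ovary-active ovary, 26 of the 28 among them, and 0 in brain. Bt-KTI was called with the block, at a limma adjusted p of 0.0453. Genes at a few normalized counts in brain or ovary rest on a few reads, and with 3 pools per phenotype small changes would be missed.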
